A study of Mus musculus with 18 samples.

Results

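The genes described here are 44 components of DNA replication and of nucleotide supply, compared between endothelial cells and the other cells of the growing mouse retina. They comprise the replicative helicase, the factors that license and fire origins, the sliding clamp and its loader, the polymerases and primase, the single-strand binding protein, the enzymes that join Okazaki fragments, the enzymes that make deoxynucleotides, and proteins that restore chromatin behind the fork. The members of the list are given by name. Each was read by 1 Affymetrix probe set, the brightest of those annotated to that gene alone on the first of the chips A, B and C that held one. All 44 were measured, out of 15964 genes measured in this way. Chip A held 42 of them, chip B held Pole and chip C held Tyms.

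Both populations came from retinas of FVB/N mice, homozygous for a Tie2-GFP transgene, at postnatal day 8. FVB/N mice carry a retinal degeneration allele of Pde6b, as background, so both populations shared it. Retinas were pooled and dissociated with papain before flow sorting into GFP-positive (GFP-pos) cells, in which the Tie2 promoter marks endothelium, and GFP-negative (GFP-neg) cells, the rest of the retina. Each population had 3 arrays on each chip. Whether the 3 arrays stand for separate pools of animals is not given in the labels. The p-values therefore reflect array-to-array spread alone, part or all of which may be technical.

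Before a cell divides, an origin recognition complex, Cdc6 and Cdt1 load the ring-shaped Mcm helicase onto DNA, and in S phase the kinase Cdc7 with Cdc45 turns the ring into an active helicase. Polymerases then copy the strands, held to DNA by the clamp Pcna, while ribonucleotide reductase and thymidine kinase feed them deoxynucleotides. Many of these genes are known targets of the E2F transcription factors. In the retina of the first postnatal days the last neuronal progenitors leave the cell cycle, while the endothelium is still expanding, chiefly behind the vascular front.

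Most endothelial markers, but not all, separated the populations. Of 15 endothelial markers 12 were higher in GFP-pos cells, and the summed intensity of the list was 15498 to 18923 units in GFP-pos arrays and 2362 to 3420 units in GFP-neg arrays. Tek, which encodes Tie2, read 547, 537 and 240.4 units in GFP-pos arrays and 9.48, 8.58 and 6.62 units in GFP-neg arrays. The other 3, Kdr, Pecam1 and Egfl7, did not pass, with differences of 0.01, -0.05 and 0.06. Kdr, the receptor of vascular endothelial growth factor, was bright in both populations, at 1986, 2447 and 2272 units in GFP-pos arrays and 2796, 2128 and 1811 units in GFP-neg arrays, and made up most of the GFP-neg sum. Of 13 retinal progenitor markers 1 was higher and 6 were lower, with sums of 2011 to 3029 units in GFP-pos arrays and 3162 to 4144 units in GFP-neg arrays. The higher marker was Nes, at 199.6, 433 and 339 units in GFP-pos arrays and 95.9, 75.2 and 61.0 units in GFP-neg arrays. Notch1, which did not pass (0.49), made up most of the GFP-pos sums, at 1251, 1771 and 1200 units. In GFP-neg arrays Notch1 read 1107, 973 and 880 units. Sox2 (-4.37), Pax6 (-3.82) and Hes5 (-2.29) fell most. Müller glia markers fell in 8 of 9 cases, with sums of 1809.8 to 2575 units in GFP-pos arrays and 5024 to 7970.1 units in GFP-neg arrays, and photoreceptor markers fell in 4 of 10, with sums of 455 to 829 units in GFP-pos arrays and 1562 to 2807 units in GFP-neg arrays. Of 7 astrocyte markers 1 was higher and 2 were lower, with sums of 1232 to 1709 units in GFP-pos arrays and 579 to 1140 units in GFP-neg arrays. The higher astrocyte marker was Gja1, which made up most of the GFP-pos sums, at 1431, 943 and 1141 units. In GFP-neg arrays Gja1 read 123, 36.3 and 52.5 units. The lower astrocyte markers were Pdgfra (-3.45) and Aqp4 (-1.17). Of 16 microglia and leukocyte markers 3 were higher, with sums of 1709.8, 1609 and 2954 units in GFP-pos arrays and 648, 696 and 645 units in GFP-neg arrays. The high sum was that of GFP-pos replicate 3, where Csf1r read 929.8 units, against 37.3 and 41.2 units in GFP-pos replicates 1 and 2. The 3 that were higher were Lcp1 (4.87 on the log2 scale), Laptm5 (1.56) and C1qb (0.78), and the pan-leukocyte marker Ptprc did not pass (0.03). Lcp1 read 965, 908 and 1268 units in GFP-pos arrays and 19.6, 25.3 and 15.5 units in GFP-neg arrays. No pericyte marker of 10 and no erythroid marker of 5 passed by limma, where 1 pericyte marker was lower and 1 erythroid marker higher at an unadjusted p under 0.05, and limma-trend called none of either. No marker gene had an array at 0, and the part of the non-endothelial cell types in the results below was not tested. GFP-pos replicate 3 stood apart, with rank correlations of 0.911 to 0.929 with the other GFP-pos arrays, where the other pairs within a population lay between 0.960 and 0.987.

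Genes of the replication machinery were more often higher than lower in the endothelial population. At an adjusted p under 0.05 (limma, Benjamini-Hochberg adjustment within the chip), 14 of the 44 genes were higher in GFP-pos cells and 1 was lower. Over all 15964 genes, 9.43% were higher and 11.3% lower by the same rule. The median log2 difference of the 44 genes was 0.34, beside 0.04 over all genes. Each log2 difference is GFP-pos minus GFP-neg, taken after adding 16 to the intensities, which makes differences of dim probe sets smaller than their true size. In such bulk samples, more or fewer cells that carry a transcript and more or less of it per cell cannot be told apart.

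The 14 genes that rose were Mcm3, Gmnn, Cdt1, Tk1, Cdc6, Pcna, Uhrf1, Rpa2, Prim1, Pole2, Cdc45, Lig1, Mcm6 and Rfc5, in order of their differences, and the gene that fell was Rpa1. Of the 14, 5 rose at least 2-fold on the scale of intensity plus 16, and 7 by the ratio of the mean intensities themselves. Another 29 genes did not pass, with 19 differences above 0 and 10 below. All 3 GFP-pos arrays lay above all 3 GFP-neg arrays for 21 of the 44 genes, which over all genes held for 21.8%, and below them for 3 genes, which over all genes held for 18.7%. The 21 genes were the 14 that rose and 7 that did not pass.

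**Figure D1:**
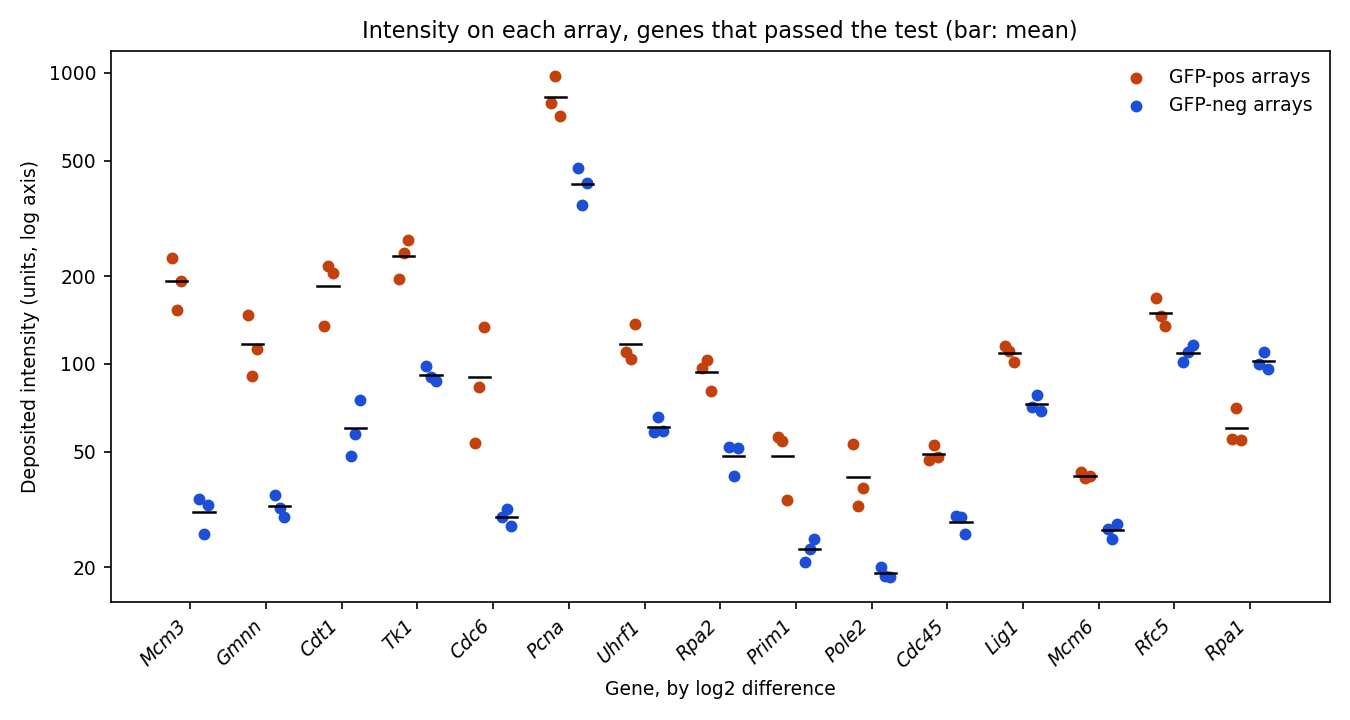
Deposited intensity (units, log axis) of the 15 genes that passed the test, with 3 GFP-pos arrays (orange, left) and 3 GFP-neg arrays (blue, right) for each gene and bars at the means. The arrays of the 2 populations do not overlap for any of them, and Rpa1 is the gene with the GFP-pos arrays below.

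The calls were not equally firm. Of the 15 genes that passed, 11 passed again when each of the 6 arrays was left out in turn. The others were Cdc6, Rfc5, Prim1 and Pole2, whose values without single arrays are given below. Without GFP-pos replicate 3 the count was 19 higher and 3 lower, in a fit that called 14% of all genes higher and 15.9% lower. A further 5 genes rose then, namely Orc1, Rfc1, Rpa3, Rrm1 and Rrm2, and the genes Rfc3 and Dut joined Rpa1 in falling. Set against the GFP-neg mean of each gene, the median of the 44 genes was 0.38, 0.29 and 0.27 in GFP-pos replicates 1, 2 and 3, and 0.01, 0.00 and -0.02 in GFP-neg replicates 1, 2 and 3 (log2 scale). The GFP-pos arrays thus lay above all GFP-neg arrays in this median, and replicate 3 read 4 genes at least 2-fold away from the mean of the other GFP-pos arrays, higher for Mcm5 and Dut and lower for Orc4 and Cdc7. Leaving it out also moved, by over 1.5 times, differences of genes that passed in neither fit. Without it the difference was -0.06 for Orc4, -0.21 for Orc5, 0.26 for Orc6, 0.28 for Rfc4, 0.49 for Pola1, 0.01 for Pold1 and -0.23 for Pold2, and it changed sign for Mcm5 (-0.02), Mcm10 (0.03), Cdc7 (0.00), Prim2 (-0.05) and Chaf1b (-0.02).

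**Figure D2:**
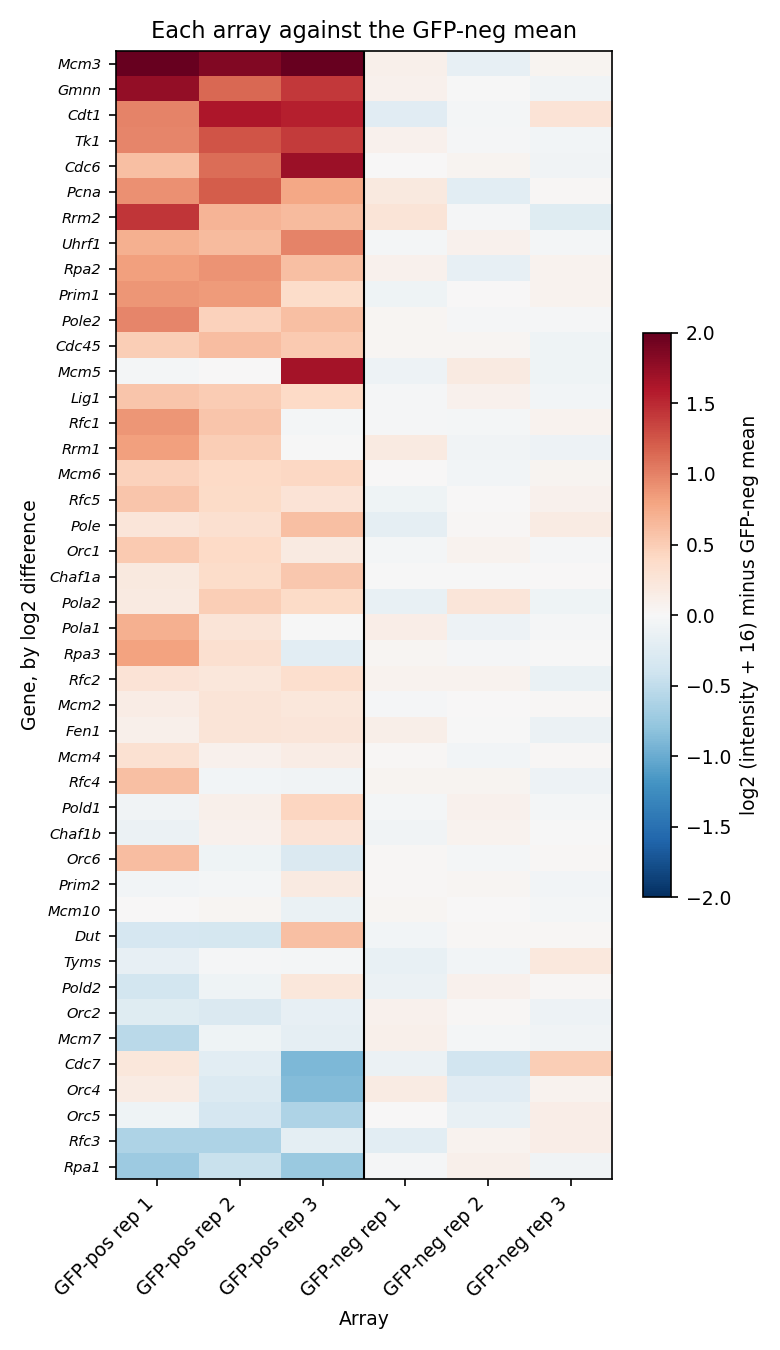
Each of the 44 genes (rows, ordered by log2 difference) on each of the 6 arrays of its chip (columns, GFP-pos left of the line), as log2 of intensity plus 16 minus the gene's GFP-neg mean, with colours limited to -2 and 2. The upper rows are red on all 3 GFP-pos arrays, while Mcm5 and Dut are red on GFP-pos replicate 3 alone.

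Promoter sequence was examined because these genes are known as E2F targets and because 14 of them rose together. RefSeq promoter windows (GRCm38.p6, 250 bases before to 50 after the start) were matched by gene ID for 39 of the 44 genes. The E2F motif was searched on both strands in 4 spellings, of which the first was TTGGCGC, the second was TTCCCGC, the third was TTCGCGC and the last was TTGCCGC. At least 1 of them occurred in the windows of 25 of these 39 genes, or 64.1%, compared with 16.8% of the 12651 genes on the arrays that have a window and 10.9% of all 27025 genes with one. The first spelling can overlap its own reverse complement, so shares count genes and not matches. The CCAAT box, searched as CCAAT on either strand, occurred in 24 of the 39 genes, or 61.5%, compared with 42.4% of the genes on the arrays and 41.1% of all genes with a window. The CHR element, an element known from genes of mitosis and searched as TTTGAA on either strand, occurred in 5 of the 39, or 12.8%, compared with 15.6% of genes on the arrays and 20.2% of all genes with a window. The E2F letters were present in 9 of the 13 genes that rose and have a window, and in 16 of the 25 that did not pass. A match is a description of these letters and not a site.

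Shown here, in capitals, are the E2F and CCAAT matches of the helicase gene and the licensing genes that rose most and have a window (Mcm3, Cdt1 and Cdc6), of Tk1 and Pcna, which rose without these E2F letters in the window, and of Rpa1, which fell. Each runs 5′ to 3′ along the gene's strand. The windows lie at chr1:20820263-20820562 (minus strand) for Mcm3, chr8:122567765-122568064 (plus strand) for Cdt1, chr11:98907901-98908200 (plus strand) for Cdc6, chr11:117825965-117826264 (minus strand) for Tk1, chr2:132253131-132253430 (minus strand) for Pcna and chr11:75348334-75348633 (minus strand) for Rpa1.
Mcm3: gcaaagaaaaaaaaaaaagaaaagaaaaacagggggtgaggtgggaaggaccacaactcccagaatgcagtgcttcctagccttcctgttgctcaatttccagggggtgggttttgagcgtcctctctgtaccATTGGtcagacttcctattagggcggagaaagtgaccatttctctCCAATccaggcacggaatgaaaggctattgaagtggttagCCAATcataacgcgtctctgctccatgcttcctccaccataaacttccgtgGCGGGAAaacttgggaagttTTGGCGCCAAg
Cdt1: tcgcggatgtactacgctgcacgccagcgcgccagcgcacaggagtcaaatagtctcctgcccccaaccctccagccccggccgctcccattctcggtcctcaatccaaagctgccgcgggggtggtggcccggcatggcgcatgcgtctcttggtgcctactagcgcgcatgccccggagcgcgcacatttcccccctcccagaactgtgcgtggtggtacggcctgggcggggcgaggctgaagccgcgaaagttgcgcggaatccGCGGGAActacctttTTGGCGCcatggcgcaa
Cdc6: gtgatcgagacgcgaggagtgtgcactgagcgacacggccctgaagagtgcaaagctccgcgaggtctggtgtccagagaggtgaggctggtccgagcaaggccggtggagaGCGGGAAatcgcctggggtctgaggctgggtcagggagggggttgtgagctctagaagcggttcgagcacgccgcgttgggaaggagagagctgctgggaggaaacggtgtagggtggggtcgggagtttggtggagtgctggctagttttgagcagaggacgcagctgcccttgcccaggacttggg
Tk1: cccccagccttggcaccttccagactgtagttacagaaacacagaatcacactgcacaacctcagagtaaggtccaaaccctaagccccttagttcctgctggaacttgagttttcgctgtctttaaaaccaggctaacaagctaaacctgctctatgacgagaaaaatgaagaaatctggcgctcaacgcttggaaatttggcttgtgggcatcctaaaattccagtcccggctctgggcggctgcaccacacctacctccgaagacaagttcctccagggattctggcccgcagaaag
Pcna: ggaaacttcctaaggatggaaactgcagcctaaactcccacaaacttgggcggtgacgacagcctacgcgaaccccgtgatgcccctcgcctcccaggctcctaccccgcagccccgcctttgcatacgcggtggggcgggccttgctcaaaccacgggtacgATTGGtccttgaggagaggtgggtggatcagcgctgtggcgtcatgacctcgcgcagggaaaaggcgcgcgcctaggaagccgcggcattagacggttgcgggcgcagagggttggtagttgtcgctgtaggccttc
Rpa1: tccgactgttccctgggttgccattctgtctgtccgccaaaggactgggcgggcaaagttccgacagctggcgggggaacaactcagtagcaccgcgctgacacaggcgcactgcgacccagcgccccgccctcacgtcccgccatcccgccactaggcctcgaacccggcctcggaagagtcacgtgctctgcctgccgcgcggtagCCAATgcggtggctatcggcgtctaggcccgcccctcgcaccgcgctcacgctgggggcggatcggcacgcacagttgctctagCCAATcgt
In Mcm3 there were 3 E2F matches, 2 of them overlapping on opposite strands, and 3 CCAAT matches, and in Cdt1 there were 2 E2F matches. All of these E2F matches lay in the 50 bases after the start. Cdc6 held 1 E2F match, Pcna 1 CCAAT match and Rpa1 2 CCAAT matches, while the Tk1 window held neither set of letters.

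**Figure D3:**
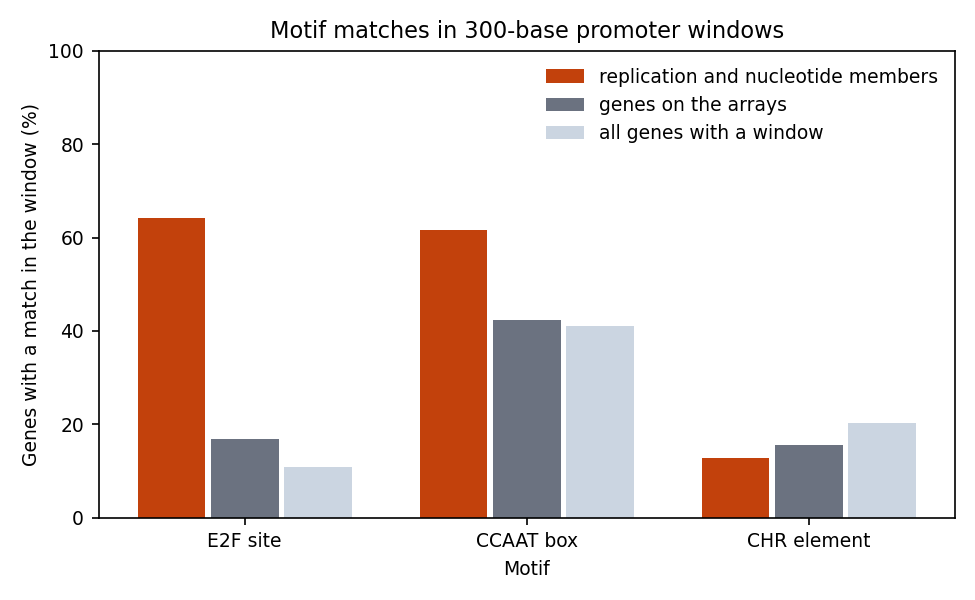
Share of genes (percent, axis from 0 to 100) with at least 1 match to each motif in the 300-base window, for the 39 replication and nucleotide genes with a window (orange), the genes on the arrays (dark grey) and all genes with a window (light grey). The E2F letters stand at 64.1%, 16.8% and 10.9%.

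The helicase genes were divided. Mcm2 to Mcm7 encode the subunits of 1 hexameric ring, Cdc45 is the cofactor that activates it and Mcm10 assists that step. Of these 8 genes 3 rose and 5 did not pass, with a median of 0.32. Mcm3, one of the ring subunits, read 231, 153 and 193 units in GFP-pos arrays and 34.3, 26.1 and 32.8 units in GFP-neg arrays. Every GFP-pos array was more than 4-fold above the brightest GFP-neg array. Its log2 difference was 2.13 (SE 0.16, 95% interval 1.75 to 2.52, adjusted p = 0.000506, limma), the largest of the 44 genes. A second Mcm3 probe set on chip A gave 2.17 (SE 0.13), from 205, 151 and 170.4 units in GFP-pos arrays and 30.4, 24.9 and 23.97 units in GFP-neg arrays.

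Mcm6 was dimmer, at 42.7, 40.4 and 41.1 units in GFP-pos arrays and 27.1, 25.0 and 28.3 units in GFP-neg arrays. The arrays within each population were close together and the populations did not overlap (0.42, SE 0.07, adjusted p = 0.00819, limma). Cdc45 read 47.0, 52.5 and 48.0 units in GFP-pos arrays and 30.1, 29.9 and 25.97 units in GFP-neg arrays, also without overlap (0.55, SE 0.08, adjusted p = 0.00507, limma). A brighter Cdc45 probe set on chip C did not pass (0.14, SE 0.45), with overlapping arrays. The other ring subunits did not pass. Mcm2 differed by 0.21 (95% interval 0.05 to 0.37) and Mcm4 by 0.17 (-0.03 to 0.37), with the GFP-pos arrays just above the GFP-neg arrays in both. Mcm7 lay the other way, at -0.27 (-0.60 to 0.06), with its GFP-pos arrays just below. The interval of Mcm3 lies above those of Mcm2, Mcm4, Mcm6 and Mcm7, but differences between subunits were not tested.

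Mcm5 was the brightest gene that did not pass, at 201, 209 and 697 units in GFP-pos arrays and 192, 239 and 196 units in GFP-neg arrays. GFP-pos replicate 3 alone was high, and without it the difference was -0.02, against 0.54 (SE 0.47) with all arrays. A dimmer Mcm5 probe set on chip A, looked up after these values were seen, gave 0.63 (SE 0.21, adjusted p = 0.0976, limma) from 76.2, 142 and 128 units in GFP-pos arrays and 69.0, 70.6 and 60.3 units in GFP-neg arrays, which did not overlap. Mcm10 was dim in both populations and differed by -0.02. Another Mcm10 probe set, on chip C, was lower in GFP-pos cells, at 35.3, 43.4 and 40.9 units in GFP-pos arrays and 68.6, 60.8 and 66.9 units in GFP-neg arrays (-0.54, SE 0.08, adjusted p = 0.0132, limma). A dimmer Mcm10 probe set on chip C lay the other way (0.14, SE 0.07), with GFP-pos arrays above GFP-neg arrays, and did not pass.

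Among the 9 genes of origin licensing and firing, the loading factors passed and the recognition complex genes did not. Cdc6 and Cdt1, which bring the helicase to origins, and Gmnn, which encodes geminin, the inhibitor that holds Cdt1 in check after S phase has begun, passed, and 6 genes did not. Gmnn read 147, 91.0 and 112 units in GFP-pos arrays and 35.6, 31.9 and 29.9 units in GFP-neg arrays. The populations were far apart, with a log2 difference of 1.43 (SE 0.16, adjusted p = 0.00234, limma). Cdt1 read 135, 217 and 206 units in GFP-pos arrays and 48.3, 57.5 and 75.3 units in GFP-neg arrays, again without overlap (1.39, SE 0.21, adjusted p = 0.0074, limma).

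The Cdt1 value rests on its probe set. The brightest one has a name suffix for sets that can match related transcripts, and the 2 other Cdt1 probe sets gave 0.22 on chip A and -0.01 on chip C, neither of which passed. Cdc6 was uneven within its population, at 53.7, 83.3 and 134 units in GFP-pos arrays and 29.9, 31.7 and 27.8 units in GFP-neg arrays. All GFP-pos arrays were above all GFP-neg arrays (1.15, SE 0.27, adjusted p = 0.0351, limma). The Cdc6 call ended without GFP-pos replicate 2 (adjusted p = 0.0932) and without GFP-neg replicates 1, 2 or 3 (adjusted p = 0.114, 0.0985 and 0.123), while its difference stayed between 1.11 and 1.18 in those 4 fits of limma.

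No gene of the recognition complex, which marks origins, passed with all arrays. Orc1, its largest subunit, differed by 0.37 (SE 0.10, adjusted p = 0.0636, limma) and passed without GFP-pos replicate 3 (0.46, adjusted p = 0.0099). Its GFP-pos arrays, at 35.8, 31.9 and 24.8 units, lay above its GFP-neg arrays, at 19.3, 21.7 and 19.4 units. The subunits Orc2, Orc4, Orc5 and Orc6 differed by -0.23, -0.33, -0.35 and 0.08, and none passed. The value of this Orc4 probe set rests on GFP-pos replicate 3, at 53.5, 35.5 and 17.98 units in GFP-pos arrays and 53.4, 37.2 and 49.4 units in GFP-neg arrays, and was -0.06 without it. An Orc4 probe set on chip C gave -0.63 (SE 0.19, adjusted p = 0.11, limma). It read 63.3, 39.7 and 33.1 units in GFP-pos arrays and 87.5, 67.8 and 77.1 units in GFP-neg arrays, without overlap. Another on chip C lay the other way (0.20), with overlapping arrays, and neither passed. A second, dimmer Orc2 probe set did pass, at 8.51, 7.74 and 10.9 units in GFP-pos arrays and 24.4, 19.7 and 20.6 units in GFP-neg arrays (-0.58, SE 0.09, adjusted p = 0.00658, limma). That set has a suffix for sets that can match related transcripts, and all its values lay below the array medians of chip A, 43.3 to 44.5 units. Cdc7, the kinase that fires licensed origins, was variable in both populations, at 133, 93.3 and 51.9 units in GFP-pos arrays and 101, 81.8 and 163 units in GFP-neg arrays (-0.30, SE 0.35).

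**Figure D4:**
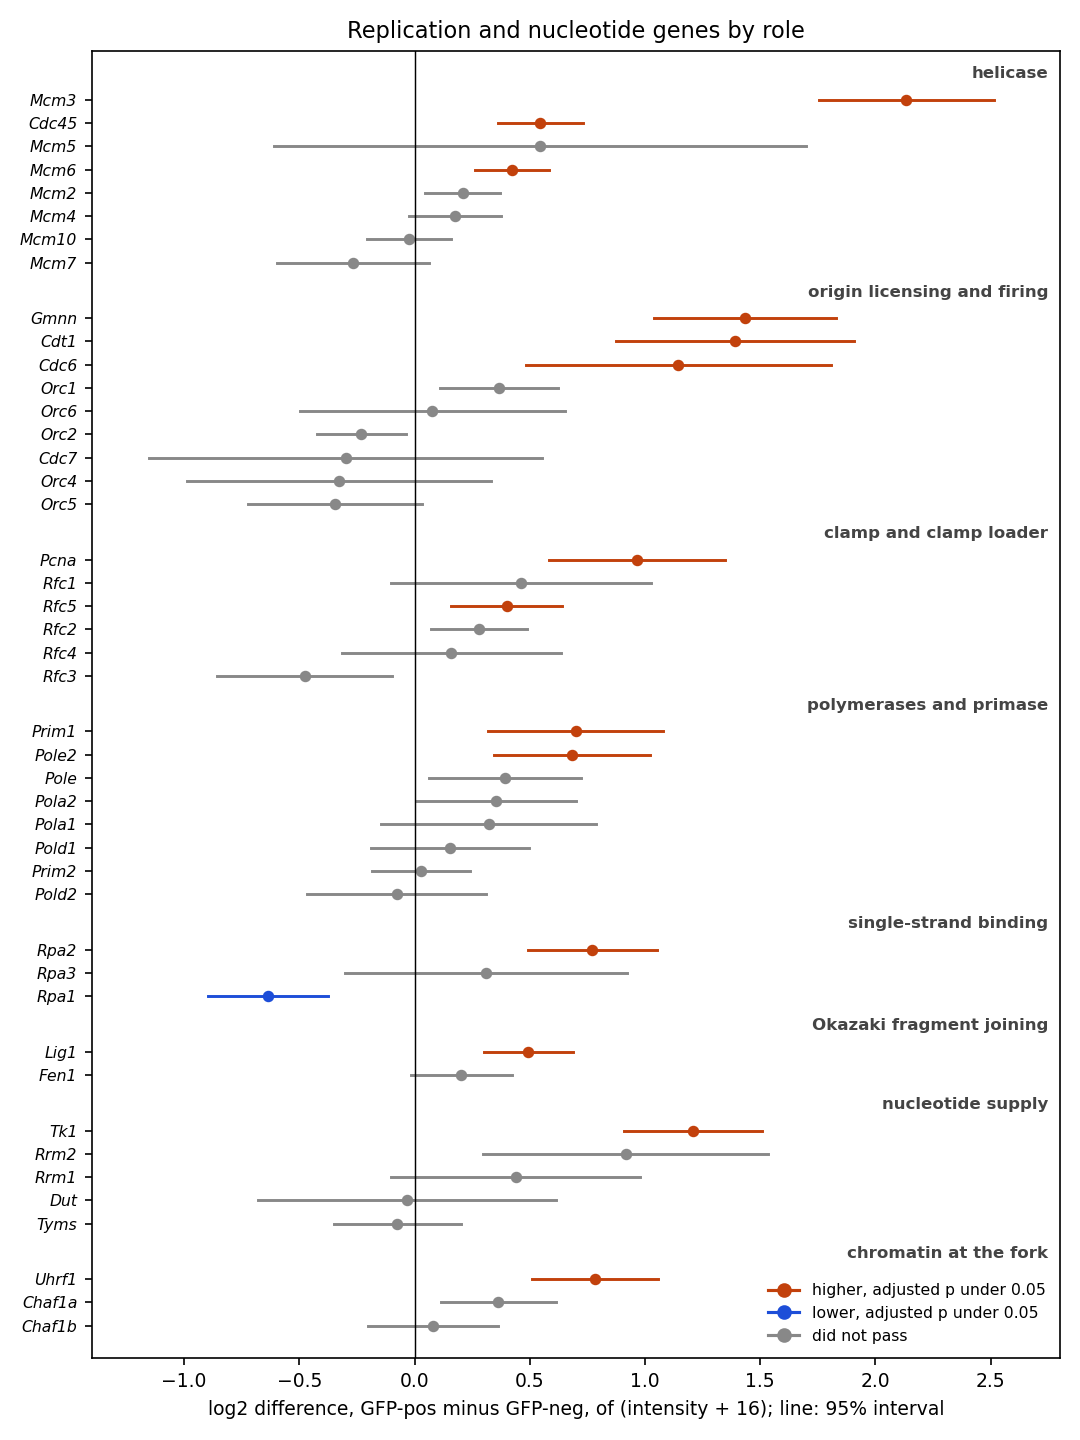
Log2 difference (GFP-pos minus GFP-neg, of intensity plus 16) of each of the 44 genes by role, with 95% intervals from the limma fit. Orange marks the 14 genes that were higher, blue the 1 gene that was lower and grey the 29 that did not pass, and Mcm3 at 2.13 stands farthest to the right.

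Pcna, the sliding clamp that tethers polymerases to DNA, was the brightest of the 44 genes. It read 791, 977 and 712 units in GFP-pos arrays and 472, 353 and 419 units in GFP-neg arrays. The dimmest GFP-pos array exceeded the brightest GFP-neg array, and the log2 difference was 0.97 (SE 0.16, adjusted p = 0.00938, limma). Of the 5 genes of replication factor C, the loader that opens the clamp, only Rfc5 rose, at 168, 147 and 135 units in GFP-pos arrays and 102, 110.3 and 116 units in GFP-neg arrays (0.40, SE 0.10, adjusted p = 0.0408, limma).

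The Rfc5 call was among the least firm. It ended without GFP-pos replicates 1 or 2 (adjusted p = 0.0867 and 0.104, limma) and without GFP-neg replicates 1, 2 or 3 (adjusted p = 0.143, 0.108 and 0.0923), where the difference lay between 0.32 and 0.44. Rfc2 differed by 0.28 with GFP-pos arrays above GFP-neg arrays, and Rfc4 by 0.16. Rfc1, the large subunit, differed by 0.46, and passed without GFP-pos replicate 3 (0.71, adjusted p = 0.00941, limma). Rfc3 lay on the other side, at -0.48 (adjusted p = 0.0914), and without that array it fell (-0.62, adjusted p = 0.0163, limma).

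Of 8 polymerase and primase genes 2 rose and 6 did not pass. Prim1, the catalytic subunit of the primase that lays down RNA primers, read 56.1, 54.3 and 34.1 units in GFP-pos arrays and 20.9, 23.2 and 25.1 units in GFP-neg arrays. Pole2, the accessory subunit of the leading-strand polymerase epsilon, read 53.0, 32.4 and 37.5 units in GFP-pos arrays and 20.04, 18.7 and 18.6 units in GFP-neg arrays. Neither gene overlapped between the populations, with differences of 0.70 (SE 0.15, adjusted p = 0.0283, limma) for Prim1 and 0.68 (SE 0.14, adjusted p = 0.021) for Pole2. Both calls ended in fits with 1 array fewer, in which the difference lay between 0.61 and 0.74 for Prim1 and between 0.67 and 0.70 for Pole2. For Prim1 these were the fits without GFP-pos replicates 1 or 2 (adjusted p = 0.0687 and 0.0897, limma) and without GFP-neg replicates 1, 2 or 3 (adjusted p = 0.107, 0.0891 and 0.0843), and for Pole2 those without GFP-neg replicates 1, 2 or 3 (adjusted p = 0.0714, 0.074 and 0.0841).

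The catalytic subunit of polymerase epsilon, Pole, was bright, at 203, 214 and 265 units in GFP-pos arrays and 146, 172 and 189.8 units in GFP-neg arrays. The populations did not overlap, but the difference of 0.39 (SE 0.14) did not pass (adjusted p = 0.0944, limma). Pola2, a subunit of the priming polymerase alpha, read 107, 137 and 126 units in GFP-pos arrays and 81.5, 113 and 85.7 units in GFP-neg arrays, and Pola1, its catalytic subunit, differed by 0.32. Prim2, the other primase subunit, differed by 0.03. The lagging-strand polymerase delta did not pass in its main probe sets. Pold2 read 91.1, 113 and 145 units in GFP-pos arrays and 111, 131 and 124 units in GFP-neg arrays (-0.08, 95% interval -0.47 to 0.31), and Pold1 differed by 0.15. A Pold1 probe set on chip C, with a suffix for sets that can match related transcripts, rose by 0.83 (SE 0.14, adjusted p = 0.0191, limma).

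Replication protein A coats single-stranded DNA as a complex of 3 subunits, and these went apart. Rpa2, the middle subunit, read 96.9, 103 and 80.7 units in GFP-pos arrays and 51.8, 41.3 and 51.3 units in GFP-neg arrays (0.77, SE 0.11, adjusted p = 0.00682, limma). Rpa1, the large DNA-binding subunit, was the only gene of the 44 that fell, at 55.1, 70.8 and 54.9 units in GFP-pos arrays and 99.98, 110.4 and 96.3 units in GFP-neg arrays (-0.64, SE 0.11, adjusted p = 0.0108). All GFP-pos arrays were below all GFP-neg arrays, and the call held without each array in turn. The 2 other Rpa1 probe sets, on chips B and C, were dimmer and lay slightly the other way (0.16 in both), without passing. Rpa3, the small subunit, differed by 0.31 and passed without GFP-pos replicate 3 (0.57, adjusted p = 0.0423, limma).

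Okazaki fragments are trimmed by the nuclease Fen1 and sealed by the ligase Lig1. Lig1 rose, at 115, 110.4 and 101 units in GFP-pos arrays and 70.9, 78.2 and 69.1 units in GFP-neg arrays, with tight values in both populations (0.49, SE 0.08, adjusted p = 0.009, limma). A dimmer Lig1 probe set on chip A gave 0.01. Fen1 was the dimmest of the 44 genes, at 12.7 ± 1.59 units in GFP-pos arrays and 8.95 ± 2.04 units in GFP-neg arrays (mean ± SD, n = 3 arrays each), and its probe set lay in the lowest 5.6% of chip A. Its difference was 0.20 and did not pass.

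Among the nucleotide supply genes, Tk1, the thymidine kinase that salvages thymidine for DNA synthesis, read 196, 240.2 and 267 units in GFP-pos arrays and 98.1, 89.9 and 87.1 units in GFP-neg arrays. The lowest GFP-pos array was far above the highest GFP-neg array, and the difference was 1.21 (SE 0.12, adjusted p = 0.00157, limma). A bright Tk1 probe set on chip C gave 1.01 (SE 0.12, adjusted p = 0.00493), from 231, 260.2 and 318 units in GFP-pos arrays and 120.3, 126 and 128 units in GFP-neg arrays. That probe set has a suffix for sets that can match related transcripts. The 4 dim Tk1 probe sets did not pass, with differences of -0.06, 0.19, -0.15 and 0.15.

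Ribonucleotide reductase, the enzyme that turns ribonucleotides into deoxynucleotides, did not pass in either subunit. Rrm2, the subunit limiting in S phase, read 104, 55.4 and 52.8 units in GFP-pos arrays and 37.5, 27.9 and 21.6 units in GFP-neg arrays. These did not overlap (0.92, SE 0.25, adjusted p = 0.0564, limma), and the gene passed without GFP-pos replicate 3 (1.06, adjusted p = 0.0344). Rrm1, the large subunit, read 252, 198 and 134 units in GFP-pos arrays and 155, 128 and 125 units in GFP-neg arrays, where GFP-pos replicate 3 lay within the GFP-neg range. Its difference was 0.44 (adjusted p = 0.253, limma), and 0.66 (adjusted p = 0.0218) without that array.

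Dut, the dUTPase that keeps uracil out of DNA, showed the reverse dependence. It read 40.0, 39.3 and 90.7 units in GFP-pos arrays and 52.2, 55.8 and 56.1 units in GFP-neg arrays, so GFP-pos replicate 3 alone was high. With all arrays its difference was -0.03, and without that array it fell (-0.35, adjusted p = 0.0168, limma). Thymidylate synthase, Tyms, was measured only by a dim probe set on chip C, at 13.8 ± 1.64 units in GFP-pos arrays and 15.6 ± 4.31 units in GFP-neg arrays (mean ± SD, n = 3 each), and did not pass (-0.08).

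Of the 3 chromatin proteins, Uhrf1, which reads hemimethylated DNA behind the fork and recruits the maintenance methyltransferase, rose. It read 110.2, 104 and 137 units in GFP-pos arrays and 58.5, 65.5 and 58.6 units in GFP-neg arrays (0.78, SE 0.11, adjusted p = 0.0058, limma). Chaf1a and Chaf1b are subunits of the chaperone that deposits new histones at the fork. Chaf1a read 43.2, 50.7 and 59.5 units in GFP-pos arrays and 35.9, 35.7 and 36.2 units in GFP-neg arrays without overlap (0.36, adjusted p = 0.0595, limma), and passed without GFP-pos replicate 1 (0.45, adjusted p = 0.029). Chaf1b differed by 0.08.

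Brightness limited several of these readings. The array medians of chip A were 43.3 to 44.5 units, and the probe sets of 15 of the 44 genes had a mean intensity below the median of their chip, 4 of which passed (Mcm6, Cdc45, Prim1 and Pole2). The files hold no detection calls, so a dim value may be background. A further 34 probe sets of 22 of the genes exist on the chips. Of these, 4 were higher, 2 were lower and 28 did not pass, and 25 had the same sign as the gene's main probe set. Those of Mcm3, Tk1 and Mcm6 that passed went the same way as the main probe set, with 0.39 (adjusted p = 0.0494, limma) for a Mcm6 probe set on chip C. The Tk1 and Mcm6 sets among them have a suffix for sets that can match related transcripts. Some genes that rose had another probe set that did not pass, where the arrays of the populations overlapped. On chip C these gave 0.14 for Cdc45, 0.25 for Rpa2, 0.07 for Uhrf1 and 0.01 for Mcm6, and on chip A -0.05 for Rfc5. Those of Cdc45 and Rpa2 were brighter than the main probe sets, with means of 76.5 and 102.9 units against 38.9 and 70.9 units. The Cdc45 set read 43.1, 47.7 and 173 units in GFP-pos arrays and 64.5, 77.5 and 53.8 units in GFP-neg arrays. Its GFP-pos replicates 1 and 2 thus lay below all GFP-neg arrays, and replicate 3 above them.

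The other genes of the pathway fall into 4 lists, whose medians lay between 0.00 and 0.27. Of 28 further replication genes, 1 rose and 1 fell, with a median of 0.27. Timeless, a fork protection factor, read 189, 168 and 179 units in GFP-pos arrays and 88.6, 96.6 and 94.1 units in GFP-neg arrays (0.83, SE 0.07, adjusted p = 0.00101, limma). Pole4, a small histone-fold subunit of polymerase epsilon, fell, at 67.3, 58.8 and 46.0 units in GFP-pos arrays and 193, 175 and 181 units in GFP-neg arrays (-1.45, SE 0.12, adjusted p = 0.000807). Its direction is opposite to that of Pole2 in the same enzyme. The topoisomerase gene Top1 was the brightest that did not pass (-0.61, SE 0.38), with GFP-pos replicate 3 far below the other GFP-pos arrays at 239 units, against 643 and 632, and the difference was -0.15 without it.

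Of 30 further genes of nucleotide metabolism, 3 rose and 3 fell, with a median of 0.00. The nucleoside transporter gene Slc29a1 rose by 2.36 (SE 0.35, adjusted p = 0.00648, limma), at 273, 613 and 697 units in GFP-pos arrays and 91.3, 86.1 and 72.4 units in GFP-neg arrays. Nme2, a nucleoside diphosphate kinase, read 1103, 987 and 1007 units in GFP-pos arrays and 305, 273 and 266 units in GFP-neg arrays (1.82, SE 0.08). Samhd1, an enzyme that degrades deoxynucleotides, differed by 1.35, a call that ended without GFP-neg replicate 2 (adjusted p = 0.052, limma). The pyrimidine synthesis genes Ctps and Umps fell by 0.67 and 0.65 on the log2 scale, and the mitochondrial thymidine kinase gene Tk2 by 0.42. The Tk2 call ended without GFP-pos replicates 1 or 2 (adjusted p = 0.0588 and 0.0532, limma) or GFP-neg replicates 1 or 3 (adjusted p = 0.0734 and 0.0859). The thymidylate kinase gene Dtymk did not pass (0.86), and passed without GFP-pos replicate 2 (adjusted p = 0.0169, limma).

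None of 12 further genes of chromatin at the fork passed by limma or limma-trend, and 1 was lower at an unadjusted p under 0.05 in limma, with a median of 0.07. Npm1, a histone chaperone of the nucleolus, was the brightest, at 2321, 1947 and 1897 units in GFP-pos arrays and 1528, 1858 and 1749 units in GFP-neg arrays (0.26, SE 0.12).

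Among regulators of S phase entry, 5 of 24 genes rose and 5 fell (median 0.03). The E2F genes E2f8, E2f7 and E2f6 rose by 1.24, 1.14 and 1.10, while E2f5 fell (-0.82, adjusted p = 0.0242, limma). The E2f5 call ended without GFP-pos replicate 2 (adjusted p = 0.08, limma) or GFP-neg replicates 1 or 3 (adjusted p = 0.0547 and 0.0801). E2f1, E2f2, E2f3 and E2f4 did not pass (-0.50, 0.18, -0.09 and 0.05). E2f8 read 98.7, 144 and 146 units in GFP-pos arrays and 54.2, 47.8 and 34.5 units in GFP-neg arrays, and its populations did not overlap. The E2f8 probe set has a suffix for sets that can match related transcripts. Myb, a transcription factor of cycling progenitors and blood cells, was lower by far, at 11.9, 8.47 and 8.13 units in GFP-pos arrays and 387, 204 and 322 units in GFP-neg arrays (-3.61, SE 0.23, adjusted p = 0.000323, limma). Rb1, which encodes the retinoblastoma protein that restrains E2F, fell by 1.56 on the log2 scale, and Mycn, a Myc family transcription factor gene, by 1.45. The Rb1 call ended without GFP-pos replicate 2 (adjusted p = 0.0673, limma) or GFP-neg replicates 1 or 3 (adjusted p = 0.0769 and 0.077). Tfdp1, which encodes a partner of E2F proteins, did not pass (-0.28). Tfdp2, which encodes another such partner, fell by 1.12 on the log2 scale (adjusted p = 0.0181, limma). It read 69.4, 51.4 and 68.5 units in GFP-pos arrays and 220, 151 and 110 units in GFP-neg arrays. The Tfdp2 call ended without GFP-pos replicate 2 (adjusted p = 0.0631, limma) or GFP-neg replicate 2 (adjusted p = 0.0628).

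Over these 4 lists together, 9 of 94 genes rose and 9 fell, or 9.57% in each direction, beside 9.43% higher and 11.3% lower over all genes. Without GFP-pos replicate 3 the count was 19 higher and 12 lower, in the fit that called 14% of all genes higher and 15.9% lower.

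Genes of mitosis were looked at beside those of replication, since both belong to dividing cells. Of 38 measured, 26 rose and none fell in limma, with a median of 0.95, beside 14 of 44 with a median of 0.34 for the replication and nucleotide genes. At an unadjusted p under 0.05, 33 were higher and 0 lower, and limma-trend called 29 higher and 0 lower. By the main rule 9.43% of all genes were higher and 11.3% lower. Shares of all genes by unadjusted p and by limma-trend were not counted, so those counts have no background beside them. The difference between the mitosis and replication lists was not tested. The cyclin gene Ccnb2 read 427, 438 and 231 units in GFP-pos arrays and 36.7, 46.2 and 40.6 units in GFP-neg arrays (2.69, SE 0.25, adjusted p = 0.00114, limma). The mitotic kinase gene Aurkb differed by 2.43 and Mki67, which marks cycling cells, by 2.09. The spindle checkpoint gene Bub3 was the brightest that did not pass (0.70), and passed without GFP-pos replicate 3 (adjusted p = 0.0426, limma). The mitosis count was 16 without GFP-neg replicate 2 or 3.

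**Figure D5:**
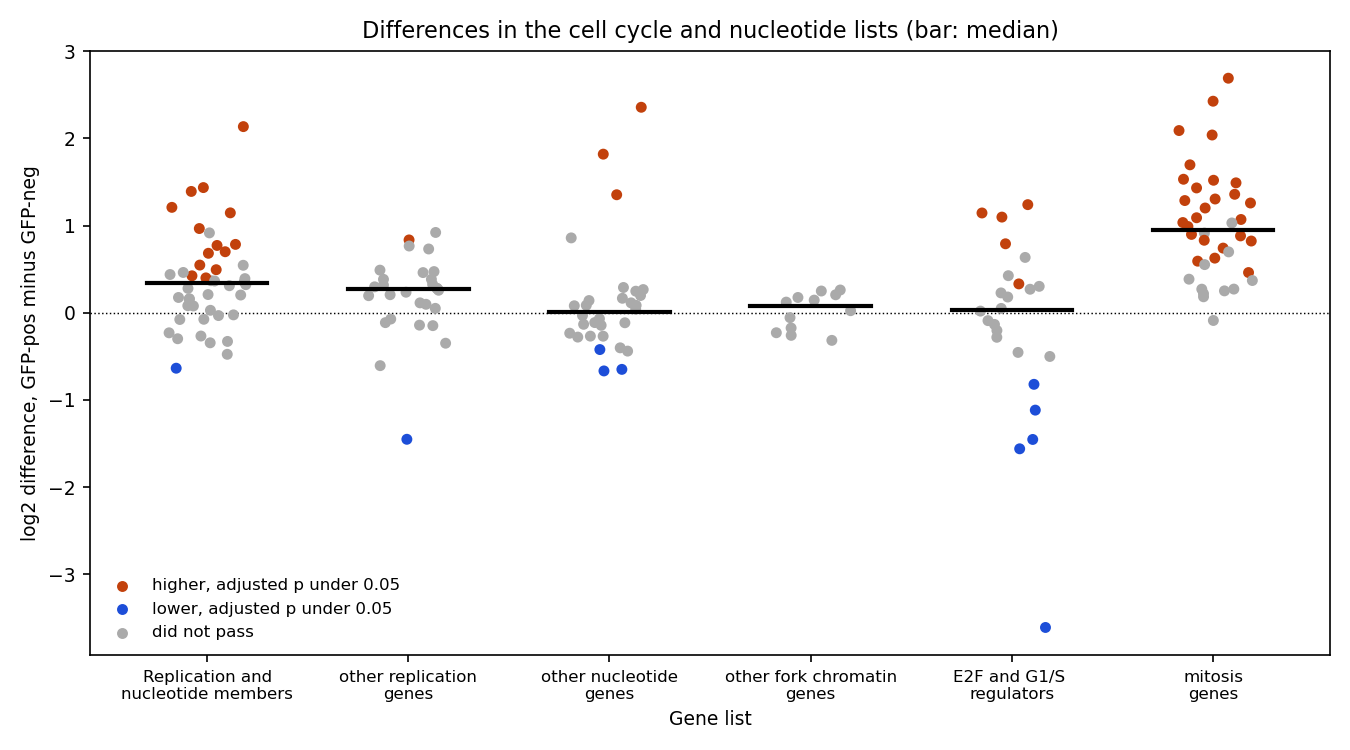
Log2 difference (GFP-pos minus GFP-neg) of every measured gene in 6 lists, 1 point per gene and bars at the medians, with orange for higher, blue for lower and grey for genes that did not pass. The medians run from 0.34 for the replication and nucleotide genes through 0.27, 0.00, 0.07 and 0.03 to 0.95 for the mitosis genes.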

How the data were processed

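Labelled cRNA from amplified total RNA was hybridised to 1-colour Affymetrix MGU74v2 chips, per the labels' protocols. The deposited values are intensities on a linear scale, 1 per probe set. No source used here gives how the authors summarised or scaled them, and they were used as deposited, since array medians within a chip were nearly equal. The number of arrays limits the precision.

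Groups came from sample titles and gene names from the platform annotation, where a probe set had exactly 1 symbol. Each chip was fitted alone with limma 3.58.1 in R 4.3.3 (lmFit and eBayes, two-sided, no replicate block) on log2 of intensity plus 16, with Benjamini-Hochberg adjustment over the chip and a threshold of 0.05. The fit was tested on simulated data. The 44 genes, the other lists and the naming rule were chosen with earlier results of these data known. By that rule all 44 genes are named, with every array's value for those that passed and the 6 brightest that did not, and from each other list up to 3 genes that passed per direction and the brightest that did not. Values per array of other genes among the 44, of Tfdp2 and of other probe sets were added after they were seen. The same holds for the differences of E2f1, E2f2, E2f3, E2f4 and E2f5. Alternatives were quantile normalization, median centring, pseudocounts of 1 and 64, a minimum mean of 50 units, limma-trend, a replicate block, adjustment over all chips, other probe set rules, a 2-fold minimum and each array left out. Figures used matplotlib 3.10.9.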

Additional observations from a re-analysis of the deposited data

How the results depend on the processing

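Of the 729 values of single genes among the 44 under the alternatives, 664 kept their direction and their side of the threshold, 37 no longer passed, 16 passed newly and 12 changed sign. All 12 sign changes came from leaving out single arrays and belonged to genes that did not pass under either setting. With each array left out, the difference ranged from -0.019 to 0.84 for Mcm5, from -0.059 to 0.026 for Mcm10, from -0.56 to 0.0043 for Cdc7, from -0.045 to 0.068 for Prim2, from -0.018 to 0.18 for Chaf1b, from -0.19 to 0.26 for Orc6, from -0.060 to 0.28 for Rfc4, from -0.23 to 0.065 for Pold2, from -0.35 to 0.13 for Dut and from -0.15 to 0.032 for Tyms. The sign changed without GFP-pos replicate 3 for Mcm5, Mcm10, Cdc7, Prim2 and Chaf1b, without GFP-pos replicate 1 for Orc6, Rfc4, Pold2 and Dut, without GFP-pos replicate 2 for Dut, and without GFP-neg replicate 3 for Prim2 and Tyms. The cause was not tested. The count of the 44 genes that rose was 14 and moved to 9 among probe sets with a mean of at least 50 units, where fewer genes were tested, and to 5 with a minimum of 2-fold. It ranged from 10 to 19 with each array left out. The count that fell was 1, became 2 with the median of all probe sets of a gene and 0 with a minimum of 2-fold, and ranged from 1 to 3 with each array left out. The median of 0.34 became 0.41 and 0.20 with pseudocounts of 1 and 64, 0.39 among brighter probe sets and 0.26 with the median of all probe sets, and ranged from 0.26 to 0.34 with each array left out. With a minimum of 2-fold the other pathway genes that fell numbered 5 and the mitosis genes that rose 17. With each array left out, other pathway genes that rose numbered 7 to 19 and those that fell 6 to 12, and mitosis genes that rose 16 to 31. Cdt1 did not pass (0.22, adjusted p = 0.129, limma) where probe sets with suffixes were left out. Pold2 and Tyms had no value there, and only 27 of the 44 genes had one at a mean of at least 50 units. With the replicate block 12 of the 44 genes rose and 1 fell, as Cdc6, Prim1 and Rfc5 no longer passed and Rrm2 did. The labels give replicate numbers without saying whether arrays of the same number are paired. Of 18 arrays, 5 correlated best with the array of the same number, and the 9 same-number correlations ran from -0.37 to 0.29. With 3 arrays per population these values cannot decide whether the arrays were paired. Dim probe sets limit what can be read from Fen1, Tyms, Mcm10 and Orc1.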
